A study of Rattus norvegicus with 10 samples.

Results

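The matrix metalloproteinases and their tissue inhibitors were followed in muscle beneath the skin of arthritic rats, across needle stimulation and saline injection. The set was the 9 symbols Mmp2, Mmp3, Mmp9, Mmp12, Mmp13, Mmp14, Timp1, Timp2 and Timp3, each of which named 1 of the 17221 transcripts of the expression table. Mmp2, Mmp14, Timp2 and Timp3 were measured in every library at several CPM or more, and Timp1 was highest in the 4 libraries of needled rats. Mmp12 was read mainly in the rats needled 1 h before and in 1 placebo library of day 34. No member passed the test across all transcripts in any comparison.

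Matrix metalloproteinases are zinc enzymes, secreted or held at the cell surface, that cut collagens, elastin and other proteins of the extracellular matrix. Most are made as inactive precursors, and their activity is held down by the Timp proteins, which bind the active site. In skeletal muscle and connective tissue the gelatinase Mmp2 and its inhibitors are made at rest, while stromelysins, collagenases and the macrophage elastase are known for low levels at rest and for induction by inflammation and injury.

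All animals were female rats of the Wistar strain in which arthritis (RA in the group names) had been induced by injecting bovine type II collagen with Freund's adjuvant, so no healthy animal enters any comparison. RA_0 rats were sampled before any therapy. AP_1h and AP_34d rats received acupuncture, the insertion and rotation of a fine needle at points of the lower back and leg, and were sampled at 1 h or on day 34 of a course of sessions, respectively. PLA_1h and PLA_34d rats received saline as placebo, by weekly injection into the peritoneum, and were sampled at the same times. Each group had 2 libraries of subcutaneous tissue that included muscle from around the stimulated points. The labels number these as replicates, and each is taken here as 1 rat, which the sources do not state. Tissue was taken at sacrifice, so each rat gave 1 time point only. The placebo was injected elsewhere than at the needled points. AP against PLA therefore does not separate puncture of the sampled tissue from rotation of the needle. Ages were not given in the sources used here.

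The values are CPM, counts per 1e+06 reads after TMM scaling between libraries. The libraries held 5371687 to 8899521 reads, and 1 CPM was worth 4.19 to 10.1 reads, so that a level below 0.297 to 0.716 CPM, depending on the library, rested on fewer than 3 reads. Skeletal muscle markers (Acta1, Ckm, Mb, Myh4, Tnnt3 and Tnni2) were read in all libraries, summing to 93650 to 290300 CPM. PLA_34d replicate 1 stood apart: its B cell and lymph node markers (Cd79b, Ms4a1, Cr2, Glycam1 and Ccl21) summed to 700.3 CPM against 13.3 to 67.2 CPM in the other 9 libraries, and the differences of Mmp12 and Timp1 between AP_34d and PLA_34d are also given without it. In tissue RNA, fewer cells of a type and less RNA per cell cannot be told apart.

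Mmp13, Mmp12 and Mmp3 lay near each other on one chromosome. In the rat build rn4, Mmp13 (NM_133530) was at chr8:4158887-4169166, Mmp12 (NM_053963) at chr8:4249935-4259837 and Mmp3 (NM_133523) at chr8:4315601-4329146, all on the plus strand. The promoters of these 3 genes are shown because each held a copy of the AP-1 motif TGAGTCA, the letters bound by Fos and Jun dimers, or of its reverse complement TGACTCA, and that of Timp1 is shown beside them because Timp1 and Mmp12 carried the largest differences below. The sequences are the 250 bases before the annotated start in RefSeq on build GRCr8, given on the gene's own strand, with the motif in capitals.
Mmp12, chr8:12866402-12866651, plus strand: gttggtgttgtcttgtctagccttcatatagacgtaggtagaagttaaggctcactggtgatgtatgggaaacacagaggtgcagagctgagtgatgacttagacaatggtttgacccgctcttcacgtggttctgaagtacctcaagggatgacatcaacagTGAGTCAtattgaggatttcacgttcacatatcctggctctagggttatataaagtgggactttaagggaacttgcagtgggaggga
Mmp3, chr8:12925031-12925280, plus strand: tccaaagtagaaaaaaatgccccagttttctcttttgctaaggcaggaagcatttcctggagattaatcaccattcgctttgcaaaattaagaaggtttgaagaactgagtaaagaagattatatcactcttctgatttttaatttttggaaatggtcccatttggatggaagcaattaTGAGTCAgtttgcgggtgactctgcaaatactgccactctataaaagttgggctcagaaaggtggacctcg
Mmp13, chr8:12782579-12782828, plus strand: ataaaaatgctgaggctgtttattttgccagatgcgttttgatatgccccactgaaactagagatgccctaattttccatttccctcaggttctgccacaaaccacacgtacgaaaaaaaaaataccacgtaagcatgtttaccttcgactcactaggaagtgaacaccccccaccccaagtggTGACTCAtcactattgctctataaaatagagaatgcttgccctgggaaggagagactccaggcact
Timp1, chrX:3771123-3771372, minus strand: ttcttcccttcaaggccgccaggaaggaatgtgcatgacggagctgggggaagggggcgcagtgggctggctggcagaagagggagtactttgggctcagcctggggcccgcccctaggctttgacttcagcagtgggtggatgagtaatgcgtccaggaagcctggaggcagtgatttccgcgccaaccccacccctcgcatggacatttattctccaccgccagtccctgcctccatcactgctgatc

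The motif began 87 bases before the start in Mmp12, 71 in Mmp3 and 66 in Mmp13. A promoter was given for 6 of the 9 members, and the 250-base windows of Timp1, Timp2 and Timp3 held neither form of these letters. Only these exact letters were searched for. Stretches close to them, such as tgagtaa in the Timp1 window, were not counted. Of 33469 rat promoter windows of this length, 1354 (4.05%) held the motif on either strand. A match describes the letters only, and Mmp2, Mmp9 and Mmp14 had no promoter sequence here.

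**Figure D1:**
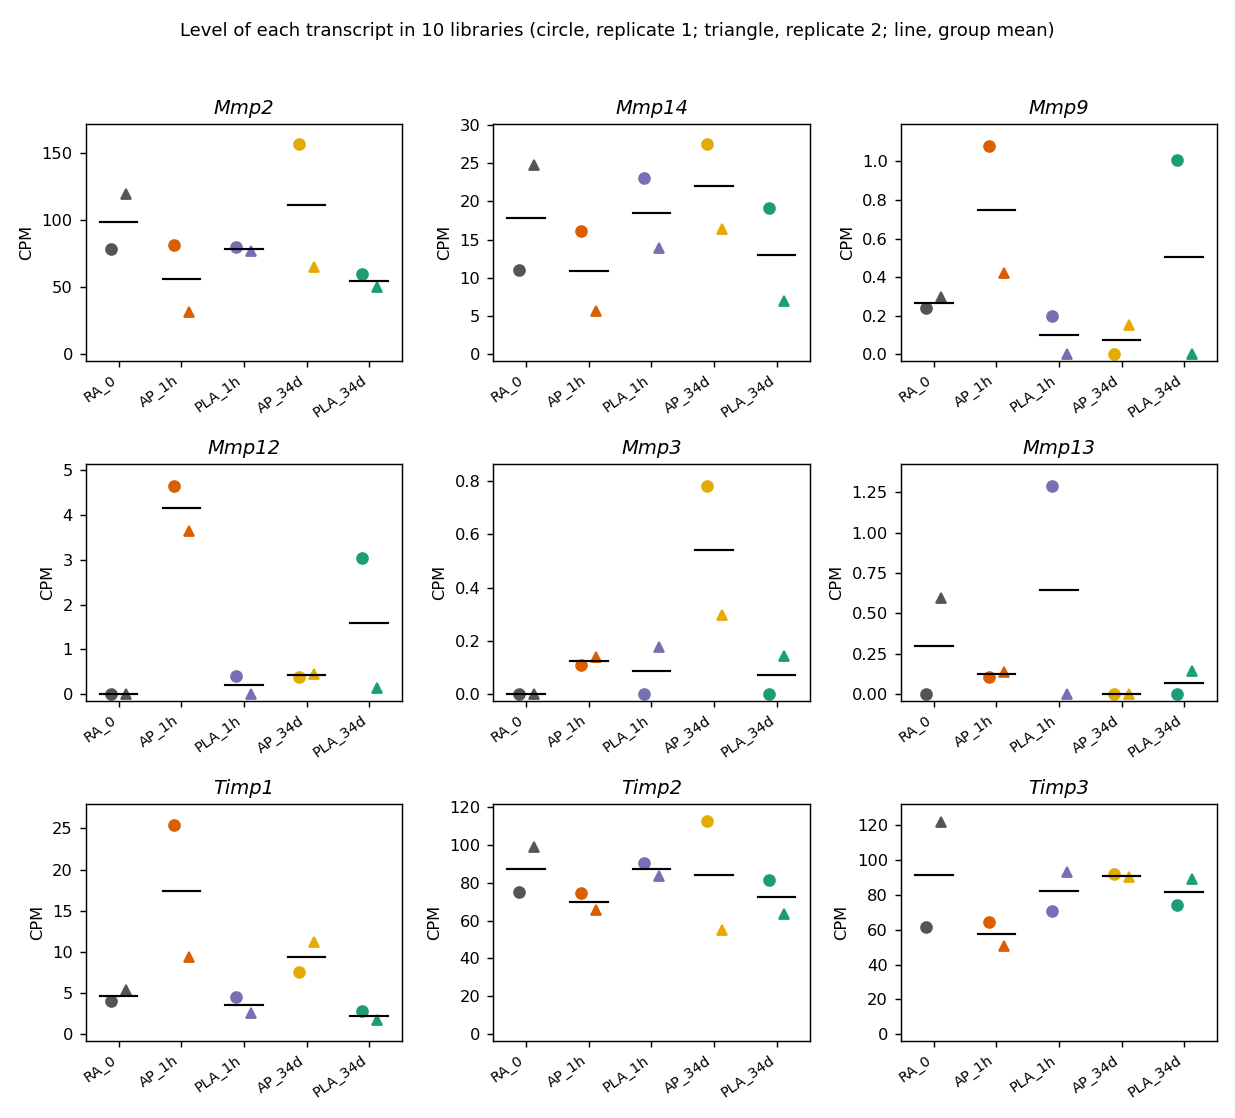
Level of each of the 9 transcripts in CPM (vertical axis, linear, a scale for each panel) in the 5 groups; circles are replicate 1, triangles replicate 2 and lines the mean of 2 libraries. Timp1 lay at 7.62 CPM or more in the 4 AP libraries and at 5.35 CPM or less in the other 6, and Mmp12 was at 3.03 CPM or more in both AP_1h libraries and PLA_34d replicate 1 and at 0.448 CPM or less in the other 7.

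Mmp2 and Mmp14 were read in every library, with wide spread between the 2 rats of a group. Mmp2 (NM_031054, chr19:15246036-15275061, minus strand), the gelatinase that degrades denatured collagen and type IV collagen, read 78.0 and 119 CPM in RA_0, 81.3 and 31.3 CPM in AP_1h, 79.9 and 76.7 CPM in PLA_1h, 157 and 64.8 CPM in AP_34d, and 59.7 and 49.9 CPM in PLA_34d. The highest and the lowest value of all libraries both came from needled rats, and each group overlapped the next in the order AP_34d, RA_0, PLA_1h, AP_1h, PLA_34d. Mmp14 (NM_031056, chr15:32493852-32503076, plus strand), the membrane-bound enzyme that activates the Mmp2 precursor at the cell surface, read 10.97 and 24.8 CPM in RA_0, 16.1 and 5.60 CPM in AP_1h, 23.0 and 13.9 CPM in PLA_1h, 27.5 and 16.4 CPM in AP_34d, and 19.1 and 6.97 CPM in PLA_34d. Its group means ran from 10.9 ± 7.43 CPM in AP_1h to 22.0 ± 7.85 CPM in AP_34d (SD, n = 2), and neighbours in that order overlapped. The widest fitted differences of both were between AP_34d and AP_1h, 0.98 ± 0.50 for Mmp2 and 1.07 ± 0.60 for Mmp14 on the log2(CPM + 1) scale (SE, limma, adjusted p = 0.940 and 0.951), and their 95% intervals, -0.14 to 2.1 and -0.27 to 2.41, contained 0.

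Mmp12, the macrophage elastase, had the most uneven pattern. It read 4.65 and 3.64 CPM in AP_1h, from 43 and 26 reads. In RA_0 it had 0 reads in both libraries, in PLA_1h 0.397 and 0 CPM from 4 and 0 reads, and in AP_34d 0.391 and 0.448 CPM from 2 and 3 reads. In PLA_34d it read 3.03 CPM in replicate 1, from 27 reads, and 0.142 CPM in replicate 2, from 1 read. On this scale the AP_1h libraries stood above the other 8, with PLA_34d replicate 1 the nearest and that group split between its 2 rats. The order of AP_1h replicate 2 and PLA_34d replicate 1 depends on the TMM factors, which were 0.912 and 1.31. Before that scaling, Mmp12 had 26 of 7835633 reads in the former and 27 of 6817140 in the latter, the higher share.

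Against RA_0, Mmp12 in AP_1h was at least 15.3-fold higher, taking as a floor 3 reads over the RA_0 group (0.275 CPM) against 4.21 CPM over the AP_1h group. On the log2(CPM + 1) scale, which understates the difference of a low transcript, it was 2.36 ± 0.55 (SE, limma, adjusted p = 0.233), and this was higher in 2 of 2 libraries. Mmp12 entered the test only through AP_1h, where it is high, since transcripts needed at least 1 CPM in both libraries of a group, so that a difference for it was built into the selection. DESeq2 on the recovered reads called it (6.90, adjusted p = 0.0233), along with 1.62% of the transcripts it tested, as did a limma fit of the 2 groups alone (adjusted p = 0.0134), which called 1.23%, while limma-voom (5.47, adjusted p = 0.285) and edgeR (7.88, adjusted p = 0.266) did not. Its adjusted p ran from 0.0134 to 0.740 over 23 alternatives.

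Between the treatments at 1 h, Mmp12 differed by 2.11 ± 0.55 (SE, limma, adjusted p = 0.644), higher in AP_1h in 2 of 2 libraries. From AP_1h to AP_34d the difference was -1.85 ± 0.55 (SE, limma, adjusted p = 0.651). The contrast of AP with PLA at 34 days against that at 1 h was -2.71 ± 0.78 (SE, limma, adjusted p = 1.00). It went to -1.80 without PLA_34d replicate 1 (adjusted p = 1.00) and to -3.62 without PLA_34d replicate 2 (adjusted p = 0.00473), which leaves the lymph-node-marked library as the only PLA_34d library. In that last fit Mmp12 was also called in PLA_34d against RA_0 (2.01, adjusted p = 0.0122), in PLA_34d against PLA_1h (1.77, adjusted p = 0.0230) and in AP_34d against PLA_34d (-1.51, adjusted p = 0.0458). With that library alone for PLA_34d, 2.81% of transcripts were called in the contrast of treatment with time, 4% in PLA_34d against RA_0, 3.91% in PLA_34d against PLA_1h and 4.14% in AP_34d against PLA_34d. Without PLA_34d replicate 1 in its place, these differences were 0.19, -0.05 and 0.31, and none was called.

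Markers of macrophages, the cells for which Mmp12 is named, were measured beside it. All 8 markers in the table (Cd68, Csf1r, Cd163, Mrc1, Itgam, Emr1, C1qa and C1qb, of 9 listed) were above 0 in every library. Their sum was 81.1 to 90.2 CPM in RA_0, 87.2 to 234.9 CPM in AP_1h, 83.4 to 113.9 CPM in PLA_1h, 110.5 to 195.7 CPM in AP_34d and 67.2 to 221.1 CPM in PLA_34d. The sum was high in AP_1h replicate 1 and PLA_34d replicate 1, where Mmp12 was read, but AP_1h replicate 2 had a sum of 87.2 CPM, within the RA_0 range, with Mmp12 at 3.64 CPM. In AP_34d replicate 1 the sum was 195.7 CPM with Mmp12 at 0.391 CPM. In AP_1h against RA_0 all 8 markers had a positive difference, median 0.79 on the log2 scale, and 0 were called.

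**Figure D2:**
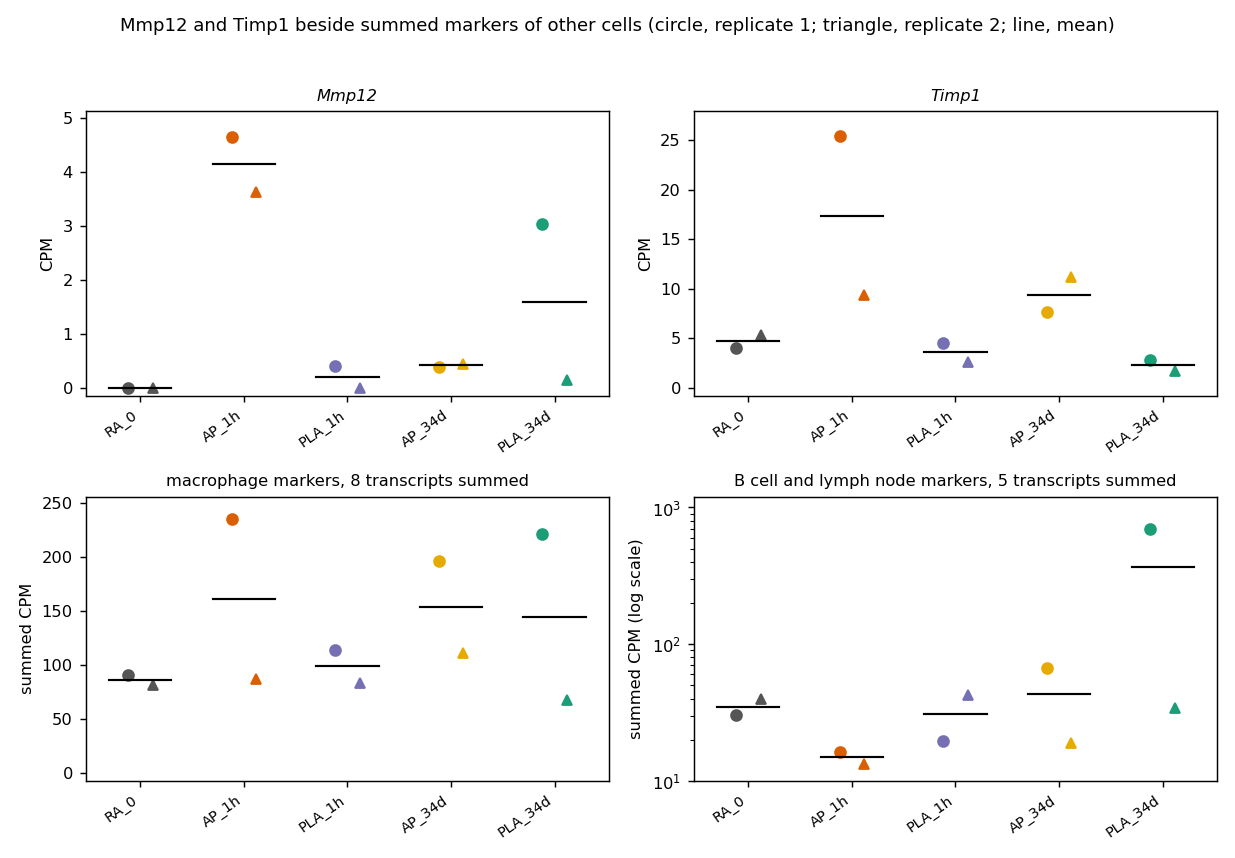
Mmp12 and Timp1 in CPM, the sum of 8 macrophage markers in CPM, and the sum of 5 B cell and lymph node markers in CPM on a log axis, in the 5 groups; circles are replicate 1, triangles replicate 2 and lines the mean of 2 libraries. PLA_34d replicate 1 is the single library with a high B cell and lymph node sum (700.3 CPM), and AP_1h replicate 2 has Mmp12 at 3.64 CPM with a macrophage sum of 87.2 CPM.

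Mmp9, Mmp3 and Mmp13 were barely read and did not pass the filter on low values. Mmp9 (NM_031055, chr3:155985473-155993433, plus strand), the inducible gelatinase known from neutrophils and macrophages, read 0.239 and 0.297 CPM in RA_0, 1.08 and 0.420 CPM in AP_1h, 0.198 and 0 CPM in PLA_1h, 0 and 0.149 CPM in AP_34d, and 1.01 and 0 CPM in PLA_34d. Its 2 highest libraries, AP_1h replicate 1 with 10 reads and PLA_34d replicate 1 with 9 reads, were also the 2 with the highest macrophage sums. The neutrophil markers S100a8, S100a9, Cxcr2, Csf3r, Mpo, Ngp and Camp summed to 18.7 and 6.51 CPM in these 2 libraries and to 1.56 to 16.5 CPM in the other 8, with Camp at 0 in 7 of 10 libraries and Ngp in 6. Whether either cell type plays a part in the Mmp9 or Mmp12 values was not tested.

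Mmp3, stromelysin 1, which cuts proteoglycans and activates other precursors, had at most 4 reads in any library. It read 0.781 and 0.299 CPM in AP_34d, 0.108 and 0.140 CPM in AP_1h, 0 and 0.175 CPM in PLA_1h, 0 and 0.142 CPM in PLA_34d, and 0 in both RA_0 libraries. AP_34d had 4 and 2 reads and each other library 0 or 1, so the gap rests on single reads. With no filter on low values, the difference of Mmp3 between AP_34d and RA_0 was 0.61 ± 0.17 (SE, limma, adjusted p = 0.974). Mmp13, a collagenase that cuts fibrillar type II collagen, read 1.29 CPM in PLA_1h replicate 1, from 13 reads, and 0 in PLA_1h replicate 2. It read 0 and 0.594 CPM in RA_0, 0.108 and 0.140 CPM in AP_1h, 0 and 0.142 CPM in PLA_34d, and 0 in both AP_34d libraries. The highest group means of Mmp3, Mmp12 and Mmp13 were in AP_34d, AP_1h and PLA_1h, in that order. Those of Mmp3 and Mmp13 came from 6 and 13 reads, too few to rank the groups. A link between the motif and these levels was not tested.

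Among the inhibitors, Timp1 was the member whose values split by treatment. Timp1 (NM_053819, chrX:12542496-12547094, minus strand), the inducible inhibitor that also binds the Mmp9 precursor, read 25.4 and 9.38 CPM in AP_1h and 7.62 and 11.2 CPM in AP_34d. It read 4.06 and 5.35 CPM in RA_0, 4.56 and 2.63 CPM in PLA_1h, and 2.80 and 1.71 CPM in PLA_34d. All 4 libraries of needled rats lay above all 6 others. Timp1 was the single member with that arrangement, which 80 of the 10259 transcripts tested (0.78%) also showed, and it was looked for after the values had been seen. The group means ran from 17.4 ± 11.3 CPM in AP_1h and 9.41 ± 2.54 CPM in AP_34d through 4.70 ± 0.913 CPM in RA_0 and 3.60 ± 1.36 CPM in PLA_1h to 2.26 ± 0.777 CPM in PLA_34d (SD, n = 2), and the gap between AP_34d and RA_0 was the 1 step in this order without overlap.

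In AP_1h against RA_0, Timp1 was higher by 1.55 ± 0.48 on the log2(CPM + 1) scale (SE, limma, adjusted p = 0.347), in 2 of 2 libraries. The difference was 0.87 without AP_1h replicate 1 and 2.22 without AP_1h replicate 2. In AP_1h against PLA_1h it was 1.88 ± 0.48 (SE, limma, adjusted p = 0.610), and DESeq2 on the recovered reads called it (2.28, adjusted p = 0.0475) with 0.388% of the transcripts it tested, the 1 call among 24 alternatives, whose adjusted p ran from 0.0475 to 1. That difference was 1.21 without AP_1h replicate 1. In AP_34d against PLA_34d it was 1.68 ± 0.48 (SE, limma, adjusted p = 0.846), with 0.0985 to 1.00 over the alternatives. Without PLA_34d replicate 1 that value was 1.92 (limma, adjusted p = 1.00). The contrast of AP with PLA at 34 days against that at 1 h was -0.20 for Timp1, with a 95% interval of -1.71 to 1.30.

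Relative to Timp2 in the same library, a ratio of reads that no scaling between libraries can alter, Timp1 stood at 0.342 and 0.143 in AP_1h and at 0.0676 and 0.203 in AP_34d. The ratio was 0.0540 and 0.0541 in RA_0, 0.0503 and 0.0314 in PLA_1h, and 0.0344 and 0.0268 in PLA_34d. The 4 AP libraries were again above the other 6. The macrophage sum was above the RA_0 range in 3 of them and within it in AP_1h replicate 2. Of the 8 macrophage markers, all 8 had a positive difference in AP_1h against PLA_1h (median 0.52 on the log2 scale) and in AP_34d against RA_0 (median 0.64), and 7 had one in AP_34d against PLA_34d (median 0.15), with 0 called in each. In PLA_34d against RA_0, where Timp1 was lower (-0.82), 7 also had a positive difference (median 0.48), with 0 called. PLA_34d replicate 1 had a macrophage sum of 221.1 CPM with Timp1 at 2.80 CPM. The part of macrophages in the Timp1 values was not tested.

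Timp2 and Timp3 were read at 50.8 CPM or more in every library. Timp2 (NM_021989, chr10:108310473-108358821, minus strand), the inhibitor that also bridges Mmp14 to the Mmp2 precursor, read 75.1 and 98.9 CPM in RA_0, 74.4 and 65.5 CPM in AP_1h, 90.6 and 83.7 CPM in PLA_1h, 113 and 55.3 CPM in AP_34d, and 81.6 and 63.5 CPM in PLA_34d. Its highest group mean was 1.25 times its lowest, and neighbouring groups overlapped. Timp3 (NM_012886, chr7:19677146-19727072, minus strand), the inhibitor that stays bound to the matrix and also blocks Adam17 and Adamts enzymes, read 61.3 and 122 CPM in RA_0, 64.2 and 50.8 CPM in AP_1h, 70.9 and 93.2 CPM in PLA_1h, 92.0 and 90.2 CPM in AP_34d, and 74.3 and 89.1 CPM in PLA_34d. AP_1h was its lowest group and did not overlap PLA_34d, the next above it. Its difference was -0.50 in AP_1h against PLA_1h (95% interval -1.30 to 0.29) and 0.16 in AP_34d against PLA_34d (-0.63 to 0.96).

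The spans of all 3 Timp genes overlap another gene in rn4, and whether reads were counted by strand was not stated. Few reads were counted for the partners: Syn1, across from Timp1, was at 0 in every library, Syn3, across from Timp3, had 16 reads in all libraries together, and Ddc8, on the strand of Timp2, had 19. Syn1 has 2 transcripts over the span of Timp1. Reads that fit more than 1 transcript were left out of the counts, so the 0 does not show that Syn1 was silent. The 6 metalloproteinase spans overlapped no other transcript of the table.

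**Figure D3:**
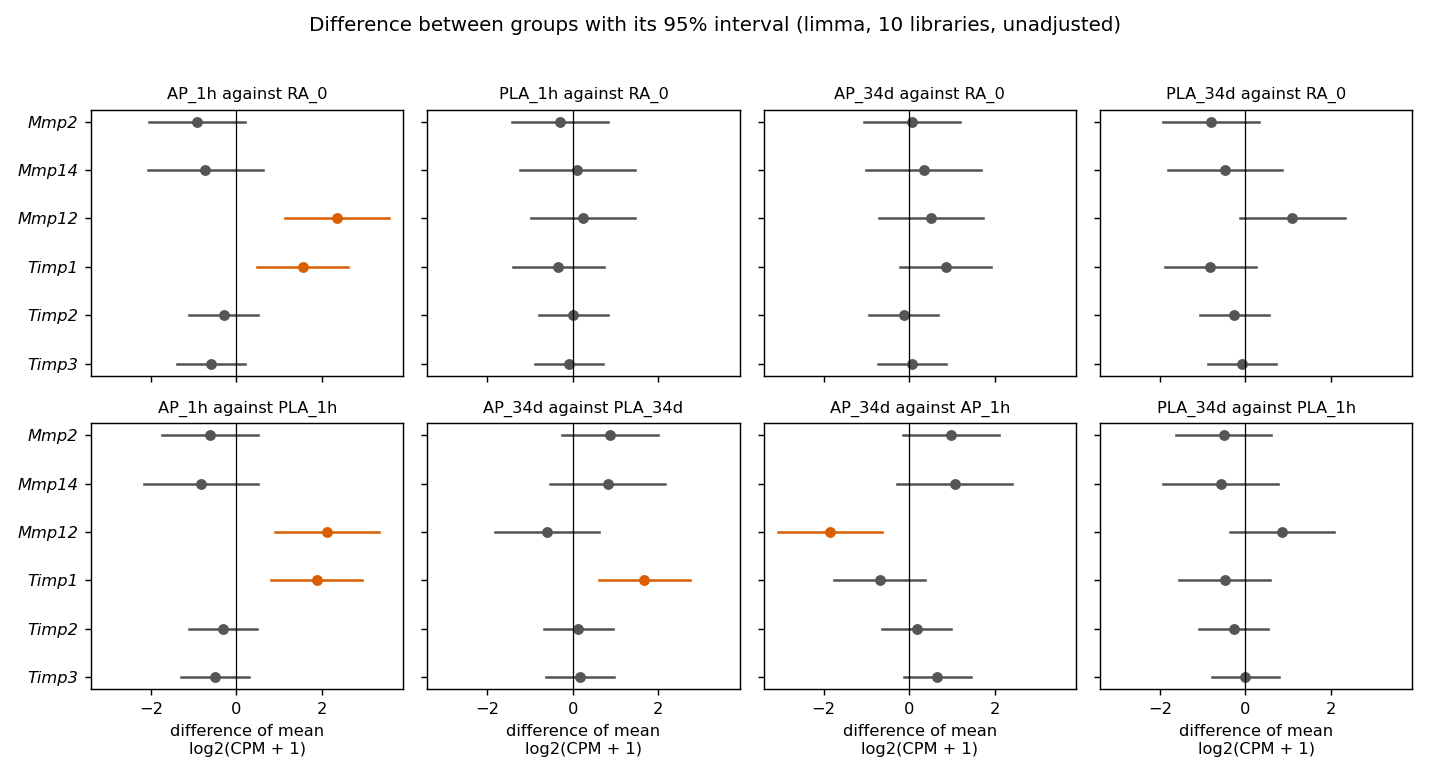
Difference of mean log2(CPM + 1) between groups (horizontal axis) for the 6 members tested, in 8 pairs of groups; points are limma estimates over 10 libraries, lines their unadjusted 95% intervals, and orange marks an unadjusted p under 0.05 between groups whose libraries do not overlap. The 6 orange values are Mmp12 and Timp1 in AP_1h against RA_0 (2.36 and 1.55) and against PLA_1h (2.11 and 1.88), Timp1 in AP_34d against PLA_34d (1.68) and Mmp12 in AP_34d against AP_1h (-1.85), which makes 3 for each gene.

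The numbers of members past a threshold were set beside the shares of all 10259 transcripts tested. At an adjusted p under 0.05 (limma), 0 of the 6 tested members were called in AP_1h against RA_0, where 3 transcripts (0.0292%) were, and 0 in the other 8 comparisons, where 0 transcripts (0%) were. At an unadjusted p under 0.05, the members past it were 2 of 6 in AP_1h against RA_0 (8.89% of all transcripts), 2 in AP_1h against PLA_1h (4.04%), 1 in AP_34d against PLA_34d (5.47%), 1 in AP_34d against AP_1h (5.35%) and 1 in the contrast of treatment with time (4.05%). They were 0 in PLA_1h against RA_0 (2.59%), AP_34d against RA_0 (4.77%), PLA_34d against RA_0 (3.2%) and PLA_34d against PLA_1h (2.96%). These values are all from Mmp12 and Timp1. The counts over the 6 include Mmp12, which was tested because of its level in AP_1h. Of the other tools, limma-voom and edgeR called 0 members in all 9 comparisons and DESeq2 called 1 in each of 2, those given above. Over the 6 tested members the median difference was -0.45 in AP_1h against RA_0, beside 0.00 over all transcripts, and 0.49 in AP_34d against PLA_34d, beside 0.00.

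Enzymes and inhibitors that act on each other were compared across the 10 libraries as 4 pairs. Mmp14 and Mmp2, activator and target, went together with Pearson's r = 0.85 on log2(CPM + 1) (permutation p = 0.00132, adjusted 0.00528) and Spearman's rho = 0.76 (permutation p = 0.0146, adjusted 0.0269). Mmp2 and Timp2 gave r = 0.78 (permutation p = 0.00837, adjusted 0.0167) and rho = 0.73 (permutation p = 0.0202, adjusted 0.0269). Mmp14 and Timp2 gave r = 0.71 (permutation p = 0.0218, adjusted 0.0291) and rho = 0.73 (permutation p = 0.0200, adjusted 0.0269). All were two-sided with 100000 resamples. The resamples moved values freely across the 10 libraries without keeping the groups, so p takes the libraries as exchangeable. How often other pairs of transcripts reach such r was not counted.

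These 3 relations rested in part on a few libraries. Without AP_1h replicate 2 and PLA_34d replicate 2, the farthest from the median of Mmp14, r was 0.63 for Mmp14 with Mmp2 (permutation p = 0.0986) and 0.66 for Mmp14 with Timp2 (permutation p = 0.0721). Without AP_1h replicate 2 and AP_34d replicate 1, r was 0.70 for Mmp2 with Timp2 (permutation p = 0.0537). With each group's mean taken away, r was 0.80, 0.69 and 0.81 in the order Mmp14 with Mmp2, Mmp14 with Timp2 and Mmp2 with Timp2, which rests on 5 differences between 2 rats and is given with no test. The labels gave no batches to repeat them in. Tendon markers (Tnmd, Scx and Fmod, of 4 listed) summed to 38.3 and 32.4 CPM in AP_1h replicate 2 and PLA_34d replicate 2, the 2 lowest for Mmp14, and to 230.4 and 161.9 CPM in RA_0 replicate 2 and AP_34d replicate 1, the 2 highest. Most of that gap was Fmod, a collagen-binding proteoglycan also made outside tendon, at 4.90 and 27.2 CPM in the former and 198.6 and 149.2 CPM in the latter. Scx, a tendon transcription factor, was at 33.0 and 4.26 CPM in the former and 16.04 and 7.81 CPM in the latter, and so was not ordered like Mmp14 in these 4 libraries. Fibroblast markers (Dcn, Lum, Pdgfra, Dpt, Fbln1 and Mfap5) summed to 580.9 and 453.0 CPM in the 2 libraries lowest for Mmp14 and to 775.0 and 703.1 CPM in the 2 highest, within a range of 415.9 to 775.0 CPM. The part of tissue makeup in these relations was not tested.

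Mmp9 and Timp1, a precursor and the inhibitor it binds, gave r = 0.44 (permutation p = 0.198, adjusted 0.198) and rho = 0.44 (permutation p = 0.210, adjusted 0.210). The value turned on single libraries: r was 0.0040 without AP_1h replicate 1 and 0.79 without PLA_34d replicate 1 (permutation adjusted p = 0.0184), and 0.49 without both (permutation p = 0.216). With the group means taken away it was 0.76, again with no test, and with Mmp9 resting on at most 10 reads a library.

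**Figure D4:**
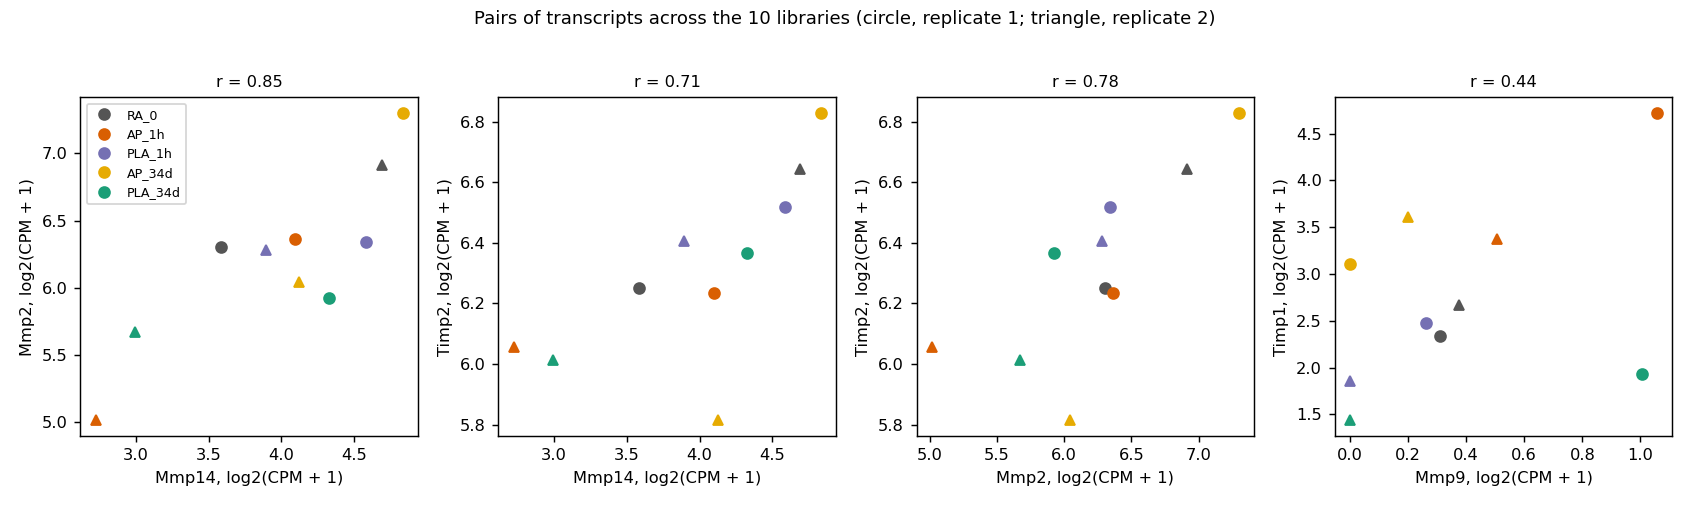
Each panel plots 2 transcripts against each other as log2(CPM + 1), 1 point for each of the 10 libraries, coloured by group; circles are replicate 1 and triangles replicate 2. Mmp14, Mmp2 and Timp2 increase together (r = 0.85, 0.71 and 0.78), while in the panel of Mmp9 and Timp1 (r = 0.44) the 2 points with the highest Mmp9, AP_1h replicate 1 and PLA_34d replicate 1, have Timp1 at 25.4 and 2.80 CPM.

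The transcripts most like each member over the 10 libraries were found by Pearson's r of log2(CPM + 1) among those with a mean of at least 5 CPM, as a description of the pattern. For Mmp2 they were Pdgfrb (r = 0.93), a receptor of pericytes and fibroblasts, and Fcgrt (0.90), the Fc receptor that recycles antibodies. For Mmp14 they were Fibin (0.93) and Scara3 (0.92). For Mmp12 they were Arpc4 (0.93), a subunit of the actin-branching complex, and Cxcl13 (0.92), a chemokine that draws B cells, at 58.0 CPM in PLA_34d replicate 1 and 33.8 and 15.5 CPM in AP_1h. Both stood at r = 0.94 without PLA_34d replicate 1. For Timp1 they were Cnpy4 and Adamts9 (both 0.93), the latter a proteoglycan-cutting enzyme at 40.5 and 23.1 CPM in AP_1h. For Timp2 they were Marveld1 (0.89) and Olfml3 (0.88), and for Timp3 Pcdhgc3 (0.93) and Card10 (0.89). With 8151 or 8152 transcripts searched over 10 libraries that share their depth and makeup, values of this size carry no test.

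The wider matrix-remodelling system held 80 further genes in 6 lists, of which 66 were in the table and 47 were tested in 8 pairs of groups. In those tests 0 were called by limma, limma-voom, edgeR or DESeq2, and at an unadjusted p under 0.05 (limma) 14 of 376 values were higher and 1 lower. These 15 were 3.99% of the values, beside 4.66% over all transcripts in the same 8 pairs. Among the 14 other metalloproteinases measured, 6 passed the filter: Mmp15, a membrane-bound enzyme, had the highest mean level (73.5 CPM), and Mmp28 gave the smallest p, at 1.83 ± 0.563 CPM in RA_0 and 0.426 ± 0.0089 CPM in AP_1h (SD, n = 2), a difference of -0.97 ± 0.40 (SE, limma, adjusted p = 0.531). Mmp28 entered the test only through RA_0, where it is high, so that a lower value elsewhere was built into the selection. Of the other inhibitors 5 of 6 were tested, with Sparc, a collagen-binding matrix protein, highest (718.9 CPM) and Pcolce, an enhancer of procollagen processing, at -0.82 ± 0.47 in PLA_34d against RA_0 (SE, limma, adjusted p = 0.914). Of the activators and regulators 9 of 12 were tested, with the lysosomal protease Ctsb highest (280.8 CPM). Furin, which cleaves the Mmp14 precursor, was at 0.76 ± 0.29 in AP_34d against RA_0 (SE, limma, adjusted p = 0.967).

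The Adam and Adamts enzymes, relatives that shed surface proteins or cut proteoglycans and some of which Timp3 blocks, gave 8 of the 14 higher values from 12 tested, which was 8.33% of their 96 values beside the 4.66% over all transcripts. The pairs of groups share libraries, so a single gene can give several of these values, and the shares were not tested against each other. Adamts4, an aggrecanase, read 6.49 and 3.08 CPM in AP_1h against 0 and 0.594 CPM in RA_0, a difference of 2.13 ± 0.49 (SE, limma, adjusted p = 0.233). Adamts4 entered the test only through AP_1h and AP_34d, where it is high, so that a difference for it was built into the selection. Adam9 had the highest mean (98.8 CPM). Of the matrix substrates 8 of 11 in the table were tested, with the fibrillar collagen Col1a1 highest (549.6 CPM) and Col3a1 at 1178 and 745.6 CPM in AP_1h against 388.4 and 313.4 CPM in PLA_1h, a difference of 1.42 ± 0.50 (SE, limma, adjusted p = 0.912). Of the inducers and AP-1 factors 7 of 11 in the table were tested, with Jun highest (304.2 CPM) and Fosl1 at 2.81 and 6.86 CPM in AP_1h against 0.991 and 0.176 CPM in PLA_1h, a difference of 1.84 ± 0.76 (SE, limma, adjusted p = 1.00). None of these passed the test. Fosl1, like Adamts4, entered the test only through AP_1h and AP_34d.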

How the data were processed

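The authors deposited a signal for each transcript in each library: CPM, read counts per 1e+06 with edgeR's TMM factors in the scaling, so columns do not sum to that total. Per the labels and the study, reads passed CASAVA 1.8.2, cutadapt 1.2.1, Bowtie2 2.1.0 on rn4, HTSeq 0.5.4p3 (transcript level, intersection-nonempty) and edgeR 3.4.2. HTSeq leaves out a read that fits more than 1 transcript, and the strand setting was not stated. Dividing by the value of 1 read gave whole numbers within 0.01 reads (100% of values), so reads were recovered.

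log2(CPM + 1) was fitted with limma 3.58.1 (R 4.3.3, eBayes with a mean trend, 1 mean per group, all 10 libraries, 5 residual and 5.14 prior degrees of freedom), over the 10259 transcripts (59.6%) that reached 1 CPM in both libraries of some group. Calls were Benjamini-Hochberg adjusted p under 0.05. The smallest exact permutation p for 2 libraries against 2 is 0.333, so none is given per gene. Limma-voom, which the study used, edgeR 4.0.16 and DESeq2 1.42.0 on the recovered reads were alternatives, with pseudocounts 0.25 and 4, other filters (none, or a mean of at least 5 CPM) and scalings, the 20 most abundant transcripts left out, compared groups alone, no mean trend, a replicate block, and each library left out. The fits were tested on simulated counts. Correlations and figures used Python 3.11.15, scipy 1.17.1 and matplotlib 3.10.9.

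Members, lists and tests were chosen with earlier results of these data known. A difference is given with its SE where the unadjusted p was under 0.05 between groups that do not overlap, and for the treatment-by-time contrast at that p, and from each list the gene of highest mean and of smallest p; the others given were chosen after their values were seen. 1 gene of the marker lists is not reported here. Each library is taken as 1 rat. Floors of reads cover counting error only, while the 95% intervals are limma's and rest on the spread between rats.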

Additional observations from a re-analysis of the deposited data

Results flagged for a closer look

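Timp1 lay on opposite sides of RA_0 in the treatment arms at 34 days: both AP_34d libraries (7.62 and 11.2 CPM) lay above both RA_0 libraries (4.06 and 5.35 CPM), and both PLA_34d libraries (2.80 and 1.71 CPM) lay below them. The differences from RA_0 were 0.86 for AP_34d and -0.82 for PLA_34d, and neither passed the test (limma, adjusted p = 0.967 and 0.914). The difference between the arms was 1.68 on the log2(CPM + 1) scale and missed the threshold (limma, adjusted p = 0.846). Timp3 differed in the order of the arms between the times: both AP_1h libraries lay below both PLA_1h libraries, and both AP_34d libraries lay above both PLA_34d libraries. The differences, -0.50 and 0.16, did not pass the test (limma, adjusted p = 1.00 and 0.970), and over the alternatives the second ran from -0.05 to 0.29. The contrast of these differences was 0.66, with a 95% interval of -0.46 to 1.79 (limma, adjusted p = 1.00). The arrangements of Timp1 and Timp3 were found by scanning the members for them. Their share among all transcripts was not counted, so they are a description only.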

How the results depend on the processing

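The 436 values under the alternatives were numbers of members called, 7 differences of Mmp12 and Timp1, and the r of 4 pairs. Of these, 418 kept their direction, where they have one, and their side of the threshold, where they have a test. A call was lost in 6 and gained in 12, and 0 reversed. A gained call can enter both as a number and as a difference. Differences outside the 7 were not counted, and some changed sign, as that of Mmp12 in AP_34d against PLA_34d did (-1.93 to 0.31). The number of members called went from 0 to 1 with DESeq2 in AP_1h against RA_0 (Mmp12) and in AP_1h against PLA_1h (Timp1), and with the compared groups alone in AP_1h against RA_0 (1, Mmp12). With each library left out in turn it was 0 to 1 in PLA_34d against RA_0, AP_34d against PLA_34d, PLA_34d against PLA_1h and the treatment-by-time contrast, in each case Mmp12 without PLA_34d replicate 2. Such fits take the spread of the lone library from the remaining groups. Left-out libraries gave r of 0.63 to 0.91 for Mmp14 with Timp2, 0.65 to 0.88 for Mmp2 with Timp2 and 0.0040 to 0.79 for Mmp9 with Timp1. The call of Mmp14 with Timp2 was lost without RA_0 replicate 2, PLA_1h replicate 1, AP_34d replicate 1 or PLA_34d replicate 2 (permutation, adjusted p = 0.0544 to 0.0956), and that of Mmp2 with Timp2 without RA_0 replicate 2 or AP_34d replicate 1 (permutation, adjusted p = 0.0570 and 0.0956). With group means taken away the relations have no test, and each r differed from that of the values themselves by less than its jackknife error over libraries, a yardstick chosen after the data were seen. The causes were not tested. Replicate numbers did not pair the samples (r of their deviations -0.46 to 0.45 between groups), and with a replicate block 0 members were called in every comparison. A mean of at least 5 CPM left Mmp12 untested. Under scaling by total reads the median of all transcripts was 0.23 in PLA_34d against RA_0 and -0.27 in the treatment-by-time contrast, in place of -0.01 and 0.02.

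The precision is that of 2 rats per group, and Mmp3, Mmp9 and Mmp13 rested on at most 13 reads in any library.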
